A study of Mus musculus with 4 samples.

Results

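The Elavl, Celf and Mbnl genes encode 3 families of RNA-binding proteins that steer splicing and mRNA stability in neurons. The 10 members described here, Elavl1, Elavl2, Elavl3, Elavl4, Celf1, Celf2, Celf4, Mbnl1, Mbnl2 and Mbnl3, were taken by gene symbol from a table of 22667 genes, and all 10 were found. Reads and length-corrected levels were read for each of them in all 4 libraries, together with 73 alternative splicing events listed under their symbols. A gene was compared between libraries if it had at least 75 reads summed over the 4 libraries, which 12497 genes had. This minimum was met by 8 of the 10 members, all but Celf2 and Mbnl3.

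The libraries come from N2a (Neuro-2a) cells, a mouse neuroblastoma line grown as a monolayer. Cells received non-targeting control siRNAs (siControl) or siRNA against Arglu1 (siArglu1), a splicing regulator and coactivator of the glucocorticoid receptor, for 48 h, and then either ethanol as vehicle (Veh) or the synthetic glucocorticoid dexamethasone (Dex, 100 nM) for 4 h. The RNA of 3 cultures was pooled within each of the 4 groups (siControl Veh and Dex, siArglu1 Veh and Dex) into 1 library a group, so that no spread between cultures can be measured and no pair of libraries was tested. Where 4 values follow each other below, the siControl libraries come first and the siArglu1 libraries last, with Veh before Dex in each. Every interval given here covers counting error alone.

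Elavl proteins bind AU- and U-rich stretches of RNA, mostly in 3′ ends and introns, where they keep mRNAs from decay and alter exon choice. Elavl1 (HuR) is made in nearly all cells, whereas Elavl2, Elavl3 and Elavl4 (HuB, HuC and HuD) are the neuronal members and markers of neuronal differentiation. Celf proteins bind GU-rich elements, promote deadenylation and decay of the mRNAs that carry them, and regulate splicing in the nucleus. Mbnl (muscleblind-like) proteins are zinc-finger proteins that recognise clusters of UGCU-like motifs. In muscle and brain, Mbnl and Celf proteins act in opposite directions on many developmental exons, and sequestration of Mbnl proteins on expanded repeats underlies myotonic dystrophy. Transcripts of several of these genes carry exons that the same families regulate.

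The exons of the members themselves carry a good part of what follows, and the paralogous ones are closely alike. Each was located in GENCODE M21 (GRCm38) by its gene, its own length and the lengths of both introns beside it, and is printed 5′ to 3′ as in the mRNA, with capitals at the positions where the 2 paralogs differ. The first pair, the 54-nt exons, holds the compared member event with the largest mean difference over both knockdown pairs. The Mbnl1 exon lies on chr3:60614683-60614736 (plus strand) and the Mbnl2 exon on chr14:120395712-120395765 (plus strand). They had the same base at 46 of 54 positions (85.2%).
Mbnl1: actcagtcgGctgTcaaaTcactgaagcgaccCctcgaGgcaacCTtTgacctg
Mbnl2: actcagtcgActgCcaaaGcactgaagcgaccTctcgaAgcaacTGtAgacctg
This exon is known to carry part of the nuclear localisation signal. It was wholly coding in 4 of the 5 annotated Mbnl1 transcripts and in all 3 annotated Mbnl2 transcripts that contain it, and its length keeps the reading frame. The second pair is shown because 2 exons that were alike in sequence were used very differently in the same cells. These are the 36-nt exons of Mbnl1 (chr3:60621423-60621458, plus strand) and Mbnl2 (chr14:120403336-120403371, plus strand), which had the same base at 31 of 36 positions (86.1%).
Mbnl1: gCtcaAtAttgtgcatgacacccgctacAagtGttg
Mbnl2: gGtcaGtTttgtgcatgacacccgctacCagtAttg
The third pair shows the same contrast in the Elavl family. The 39-nt exons of Elavl2 (chr4:91254141-91254179, minus strand) and Elavl4 (chr4:110209740-110209778, minus strand) had the same base at 33 of 39 positions (84.6%), and were coding in all 6 and in 6 of 7 annotated transcripts that contain them.
Elavl2: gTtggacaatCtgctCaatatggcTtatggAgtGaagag
Elavl4: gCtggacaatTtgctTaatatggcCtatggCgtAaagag
These exons lie in the linker between the second and the third RNA recognition motif.

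The libraries held 66074574 to 86541444 reads on genes. Arglu1 itself was at 26.4% of its control level in siArglu1 Veh (2637 against 10165 reads) and at 22.5% in siArglu1 Dex (3254 against 11825 reads). Of 11 neuroblastoma and neuron markers, 8 were at 1 cRPKM or more in all 4 libraries, and Nefl and Nefm were below 1 in all 4. The summed level of the 11 was 986 and 923 cRPKM in siControl Veh and siControl Dex, and 1350 and 1270 cRPKM in siArglu1 Veh and siArglu1 Dex. All 3 astrocyte and all 3 immune markers were below 1 cRPKM throughout, with summed levels of 0.03 to 0.05 and 0.43 to 0.61 cRPKM. The 3 oligodendrocyte markers summed to 1.49 to 2.17 cRPKM, with Mog below 1 throughout. The 4 smooth muscle markers summed to 4.74 and 4.42 cRPKM in the siControl libraries and to 80.1 and 72.2 cRPKM in the siArglu1 libraries, with Myh11 below 1 in all 4. The part of this shift in the members' values was not tested.

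Levels per length are given as cRPKM, reads scaled by the mappable length of a gene and by library size, as deposited. In siControl Veh, Celf1 had the highest level (67.1 cRPKM) and Elavl1 the next (59.8 cRPKM). They were followed by Elavl2 (29.2 cRPKM), Elavl4 (26.4 cRPKM), Elavl3 (20.6 cRPKM), Mbnl1 (16.4 cRPKM), Mbnl2 (12.5 cRPKM) and Celf4 (7.62 cRPKM). With 1 library a group, the spread that would tell neighbours in this order apart is not known. In siArglu1 Veh the order was another one, since Elavl4 (45.8 cRPKM) stood beside Celf1 (46.7 cRPKM) and Elavl1 (46.4 cRPKM) and Mbnl2 (4.95 cRPKM) beside Celf4 (4.64 cRPKM). The neuronal Elavl2, Elavl3 and Elavl4 were thus all present in N2a cells along with the ubiquitous Elavl1.

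**Figure D1:**
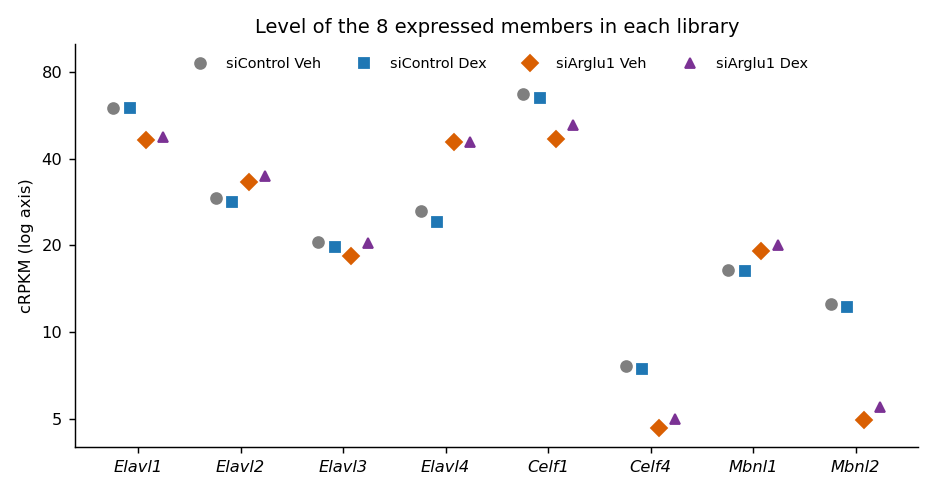
Level in cRPKM (vertical log axis) of the 8 members that met the minimum on reads, with 1 point for each of the 4 libraries and no error bar, since each group has 1 library. Elavl4 was at 26.4 and 24.2 cRPKM in the siControl libraries and at 45.8 in both siArglu1 libraries, whereas Mbnl2 was at 12.5 and 12.2 against 4.95 and 5.49 cRPKM.

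Celf2 and Mbnl3 were at the limit of detection. Celf2, a Celf protein of brain, heart and lymphocytes, had 0 reads in both siControl libraries and 1 read in each siArglu1 library. The limit that a count of 0 allows is 3 reads, or 0.0451 CPM (counts scaled to library size) in siControl Veh and 0.0421 in siControl Dex. Mbnl3, the family member of muscle precursors and placenta, had 1, 6, 1 and 8 reads in the 4 libraries. The count of Mbnl3 was higher in both Dex libraries, but the log2 ratio of Dex over Veh had intervals of -0.56 to 8.01 in siControl and -0.31 to 8.06 in siArglu1 cells, so that no difference was detectable at this depth.

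The question for knockdown was whether loss of Arglu1 alters the levels of these regulators. Ratios between libraries are log2 ratios of reads scaled by the trimmed mean of M-values (TMM), and a gene is called changed past 0.81 in either direction after knockdown or past 1 with Dex, a rule of size with no test. In bulk RNA, fewer cells of a type and less RNA per cell cannot be told apart. By this rule 2 of the 8 members changed in the vehicle pair (siArglu1 Veh against siControl Veh), Elavl4 upward and Mbnl2 downward, where 15.8% of all genes compared did, 7.0% upward and 8.77% downward. The same 2 members changed in the Dex pair (siArglu1 Dex against siControl Dex), in the same directions, where 12.1% of all genes did, 6.19% upward and 5.93% downward. The 2 pairs share no library. Since 2 members of 8 is a small count and many genes passed the rule, the share of members says nothing about these families as a whole.

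Mbnl2 had the largest difference of the members. Its reads numbered 3728 (Veh) and 3919 (Dex) in siControl cells, against 1485 (Veh) and 2140 (Dex) in siArglu1 cells. Both siArglu1 libraries held fewer reads of Mbnl2 than either siControl library, although siArglu1 Dex was the deepest of the 4. The log2 ratio was -1.30 (95% interval -1.39 to -1.22) in the vehicle pair and -1.16 (-1.24 to -1.08) in that with Dex. Mbnl2 was thereby at 40.5% (38.1 to 43.0%) and 44.7% (42.4 to 47.1%) of its control level. Of the 12497 genes compared, 346 had a lower ratio than Mbnl2 in the vehicle pair and 306 in that with Dex.

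Mbnl1, which shares most targets with Mbnl2 and can take over for it, was slightly higher instead. It had 5994 reads (Veh) and 6449 (Dex) in siControl cells, against 7030 (Veh) and 9574 (Dex) in siArglu1 cells. The log2 ratio of 0.25 (0.20 to 0.30) in the vehicle pair and 0.28 (0.24 to 0.33) in that with Dex did not reach 0.81. Per length, the 3 Mbnl genes summed to 28.9 cRPKM in siControl Veh and 28.6 in siControl Dex, and to 24.1 and 25.5 cRPKM in the siArglu1 libraries. The share of Mbnl2 in that sum was 43.3% and 42.7% in the siControl libraries and 20.6% and 21.5% in the siArglu1 libraries. The summed level of the family therefore moved far less than its make-up, with nearly all of the remainder being Mbnl1.

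Elavl4 (HuD), which stabilises neuronal mRNAs such as that of Gap43, was the one member past 0.81 upward after knockdown. It had 7129 reads (Veh) and 7056 (Dex) in siControl cells, against 12486 (Veh) and 16198 (Dex) in siArglu1 cells, so both siArglu1 libraries stood well above both siControl libraries. The log2 ratio was 0.83 (0.79 to 0.87) in the vehicle pair and 0.91 (0.87 to 0.95) in that with Dex, or 1.78-fold and 1.88-fold. A total of 833 genes had a higher ratio in the vehicle pair and 617 in that with Dex. The value of the vehicle pair lies close to the threshold and its interval includes 0.81. On the deposited cRPKM, and with scaling by total reads alone, the ratio was 0.80, below the threshold.

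The other Elavl genes differed less. Elavl2 (HuB) had 7311, 7620, 8409 and 11405 reads in the 4 libraries, and log2 ratios of 0.22 (0.18 to 0.27) and 0.29 (0.25 to 0.34) in the vehicle and Dex pairs. Elavl3 (HuC) had 6738, 6943, 6029 and 8744 reads and was near its control level, with -0.14 (-0.19 to -0.09) in the vehicle pair and 0.04 (-0.00 to 0.09) in that with Dex. Elavl1 (HuR) had 23628, 25472, 18497 and 24681 reads and was at 79.5% and 79.3% of its control level, or -0.33 on the log2 scale in both pairs. The Elavl family as a whole summed to 136, 132, 144 and 149 cRPKM in the 4 libraries in the same order. Within Elavl2 to Elavl4, which summed to 76.2, 72.2, 97.5 and 101 cRPKM, the share of Elavl4 was 34.6% and 33.6% in the siControl libraries against 47.0% and 45.3% in the siArglu1 libraries. The neuronal members thus made up more of the family, and the ubiquitous Elavl1 less, in both siArglu1 libraries.

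Both Celf genes with reads were lower after knockdown in both pairs, short of the threshold. Celf1 (CUGBP1), which recruits deadenylases to GU-rich mRNAs, had 10111 reads (Veh) and 10562 (Dex) in siControl cells, against 7092 (Veh) and 10310 (Dex) in siArglu1 cells. Its log2 ratio was -0.49 (-0.53 to -0.45) in the vehicle pair and -0.32 (-0.36 to -0.28) in that with Dex, and these intervals do not overlap. Celf4, the neuronal member that binds mRNAs of synaptic proteins, had 1957, 2064, 1200 and 1680 reads, with -0.68 (-0.79 to -0.58) and -0.58 (-0.68 to -0.49). Celf1, Celf2 and Celf4 together summed to 74.7 and 72.5 cRPKM in the siControl libraries and to 51.3 and 57.2 cRPKM in the siArglu1 libraries.

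**Figure D2:**
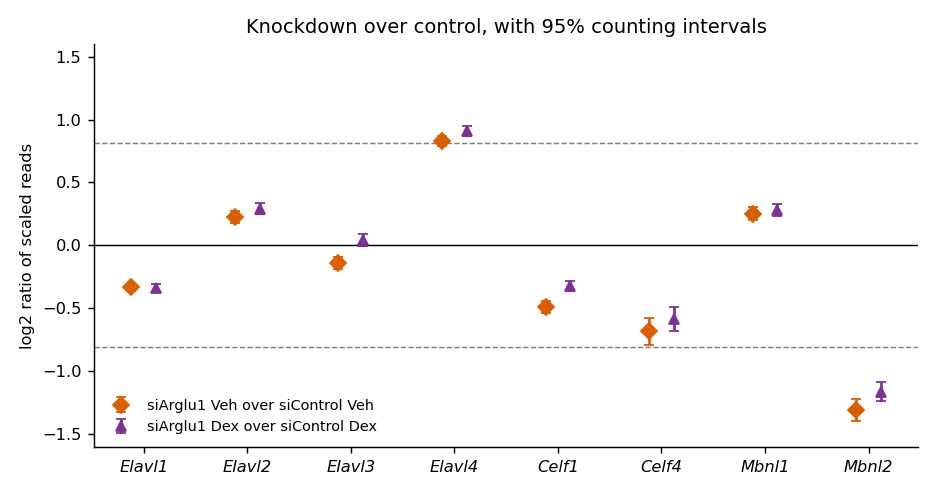
Log2 ratio of TMM-scaled reads, siArglu1 over siControl, for each of the 8 members compared, in the vehicle pair (diamonds) and the Dex pair (triangles). Bars are 95% intervals for counting error, dashed lines mark 0.81 in each direction, and Elavl4 and Mbnl2 lie past them in both pairs.

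The ratios of all genes followed transcript length, which bears on these values. Spearman's rho of the log2 ratio on mappable length was -0.40 in the vehicle pair and -0.23 in that with Dex, over 12484 genes measured in the same libraries. The members compared ran from 2.28 kb of mappable positions for Celf1 to 5.98 kb for Elavl1. With the trend removed, Mbnl2 was at -1.10 and -1.07 and Elavl4 at 0.99 and 0.98 in the vehicle and Dex pairs, so that both remained past 0.81. Elavl1 went to -0.00 in the vehicle pair and -0.18 in that with Dex. Mbnl1 went to 0.55 and 0.42, Celf1 to -0.57 and -0.38, and Celf4 to -0.55 and -0.53. Elavl1 in the vehicle pair therefore stood where genes of its length stood, and Elavl3 changed sign there, to 0.11.

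**Figure D3:**
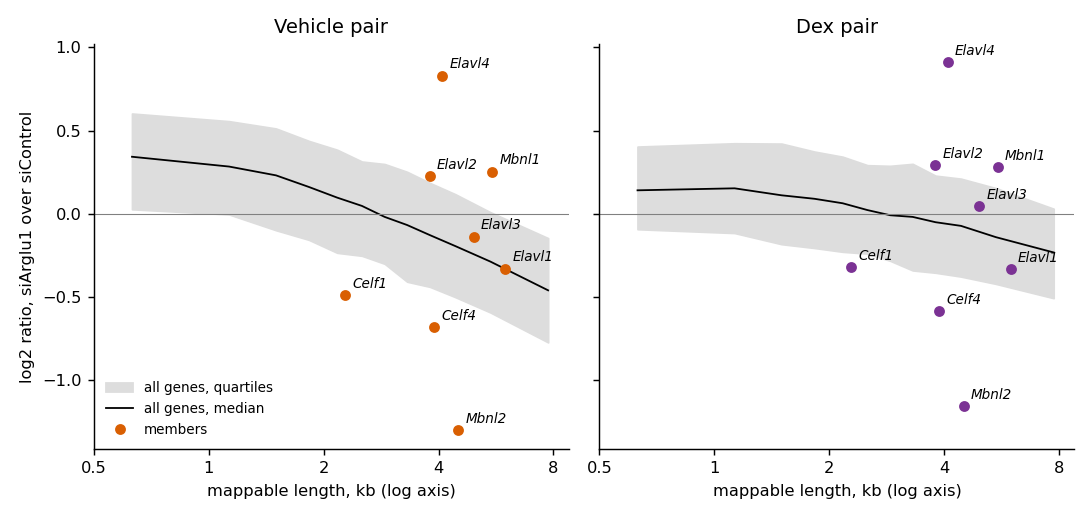
Log2 ratio of siArglu1 over siControl (vertical axis) against mappable length in kb (log axis), in the vehicle pair (left) and the Dex pair (right). Points are the 8 members, the line is the median and the band the quartiles of all genes in 12 length classes. Elavl4, Mbnl1 and Elavl2 lie above the band and Mbnl2, Celf4 and Celf1 below it in both pairs, while Elavl1 and Elavl3 lie inside it.

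The one model that uses all 4 libraries at once was fitted with edgeR's quasi-likelihood test, with additive terms for knockdown and for Dex and 1 residual degree of freedom. It takes each condition as a replicate of the other. At an adjusted p of 0.05 it called 7 of the 8 members for knockdown, all but Elavl3 (adjusted p = 0.651), but it also called 61.6% of all genes compared. A count of 7 in 8 members is read against that share. For Dex it called 0 members, also 0 at an unadjusted p of 0.05, and 1.04% of all genes.

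Dex itself left the members' reads near their vehicle level. By the rule of size, 0 of 8 members changed in siControl cells, where 0.464% of all genes did, and 0 of 8 in siArglu1 cells, where 0.392% did. In siControl cells the log2 ratio of Dex over Veh ran from -0.11 for Elavl4 (-0.16 to -0.07) to 0.01 for Elavl1. In siArglu1 cells it ran from -0.04 for Elavl4 to 0.13 for Celf1 (0.08 to 0.17) and Elavl3 (0.08 to 0.17), with 0.12 for Mbnl2 (0.02 to 0.21). Mbnl2 and Elavl4, the members that differed with knockdown, were thus at about the same level with and without Dex in either state. In siArglu1 cells the Dex ratio also followed length (rho of 0.54 over 12484 genes), against -0.16 in siControl cells.

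Splicing is given as percent spliced in (PSI), the share of junction reads that include an exon or use a site. An event was compared if it had a PSI in all 4 libraries and the coverage score LOW or better in at least 3. In the tables of alternative splice sites, LOW began at 20 junction reads, OK at 40 and SOK, the best, at 100. Reads are not given for cassette exons, so their PSI values have no interval. Of the 73 member events, 49 were cassette exons, 16 alternative 3′ and 8 alternative 5′ splice sites, and 50 were compared, none of them in Celf2 or Mbnl3. A difference of 15 PSI was reached by 1 of the 50 in the vehicle pair, where 1.96% of all 57183 events did, and by 3 in the Dex pair, where 1.52% did. With Dex, 0 events reached it in siControl cells and 0 in siArglu1 cells, against 0.719% and 0.948% of all events. These counts are too small to set the members apart from other genes.

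The event that passed in both pairs was the 54-nt exon of Mbnl1 printed above (mm9 chr3:60418605-60418658 in the deposited table). Its PSI was 84.8 (Veh) and 77.5 (Dex) in siControl cells, against 59.6 (Veh) and 61.7 (Dex) in siArglu1 cells, scored OK or SOK in all 4. Both siArglu1 libraries lay below both siControl libraries, by 25.2 PSI in the vehicle pair and 15.8 PSI in that with Dex. The matching 54-nt exon of Mbnl2 (mm9 chr14:120794934-120794987) had a PSI of 57.4, 65.4, 36.4 and 39.1 in the same order. It was not compared, because its score was N, the lowest, in siArglu1 Veh and VLOW in siArglu1 Dex, the libraries with fewest reads of Mbnl2. Its PSI was likewise lower in both siArglu1 libraries than in both siControl libraries, but there it rests on few junction reads.

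The next exons of the 2 genes were alike in sequence and not in use. The 36-nt exon of Mbnl1 had a PSI of 86.8, 87.5, 80.4 and 78.4 in the 4 libraries. The 36-nt exon of Mbnl2 had a PSI of 8.50, 8.70, 8.48 and 4.27, the third of them scored VLOW. Mbnl1 transcripts mostly kept this exon, and Mbnl2 transcripts mostly skipped it, in every library. The 95-nt exon that follows was mostly included in both genes, at 90.6, 89.8, 81.5 and 80.3 in Mbnl1 and at 95.6, 89.3, 95.1 and 84.2 in Mbnl2. In Mbnl1, the 54-nt, 36-nt and 95-nt exons were thus all lower in both siArglu1 libraries than in both siControl libraries, and only the first by 15 PSI. They are neighbouring exons of the same gene, and the 9 compared Mbnl1 events did not all follow them. The share of all events placed this way was not counted. The 111-nt exon of Mbnl1 was at 20.3, 10.9, 21.8 and 22.9, with siControl Dex alone standing apart. Of the compared Mbnl2 events, a 264-nt exon had the largest mean difference over both pairs, at 95.6, 96.7, 100 and 100.

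In Celf4, 2 cassette exons passed in the Dex pair alone. The 84-nt exon had a PSI of 87.3 (Veh) and 90.5 (Dex) in siControl cells, against 78.6 (Veh) and 74.7 (Dex) in siArglu1 cells, lower in both siArglu1 libraries. The 81-nt exon had a PSI of 98.0, 96.4, 95.7 and 80.7, so that siArglu1 Dex alone was low. Whether knockdown acts differently on it with and without Dex was not tested, since there is 1 library a group. The use of a Celf4 alternative 5′ splice site that adds 60 nt was 25% (Clopper-Pearson 95% interval 15 to 37.4%) of 64 junction reads in siControl Veh and 36.7% (19.9 to 56.1%) of 30 in siArglu1 Veh. These intervals overlap widely, as did those of siControl Dex, 36.1% (24.2 to 49.4%), and siArglu1 Dex, 42.5% (27.0 to 59.1%).

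In Celf1, none of 11 compared events reached 15 PSI. The largest mean difference was that of a 152-nt exon, at 26.7 and 27.0 in the siControl libraries and 19.6 and 20.0 in the siArglu1 libraries. The 105-nt and 186-nt exons of Celf1 were at 2.80, 2.31, 5.57 and 7.14 and at 91.6, 92.2, 96.1 and 95.7, both slightly higher in the siArglu1 libraries. A 12-nt alternative 3′ site stayed between 74.5 and 78.1 in all 4 libraries, on 291 to 529 junction reads.

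In the Elavl genes, no compared event reached 15 PSI. The 39-nt exon was used at a lower level in Elavl2 than in Elavl3 and Elavl4 in all 4 libraries. In Elavl2 the exon was mostly skipped, with a PSI of 29.0, 26.5, 31.0 and 27.6 in the 4 libraries. In Elavl4 it was mostly included, at 96.0, 94.3, 98.3 and 97.5, and the 39-nt exon of Elavl3 was at 100, 96.1, 100 and 98.6. The exon of Elavl2 thus stood far from those of Elavl3 and Elavl4, whose values overlapped over the libraries. Elavl4, at 1.78-fold and 1.88-fold of its control level after knockdown, differed by 2.29 and 3.16 PSI in this exon. From 96.0 and 94.3 in the siControl libraries, its inclusion had little room to rise. A 42-nt alternative 3′ site of Elavl4 was at 44.1, 49.3, 46.2 and 52.2, on 177 to 349 junction reads, and the lowest interval (36.6 to 51.7%) overlapped the highest (46.8 to 57.5%).

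Other exons of the Elavl genes gave small differences. The largest in Elavl2 was a 91-nt exon, at 16.9, 14.7, 8.20 and 11.6. In Elavl3 it was a 21-nt alternative 3′ site, at 42.7, 43.3, 36.5 and 39.4 on 52 to 86 junction reads, with overlapping intervals. In Elavl1 it was a 58-nt exon at 9.40, 8.70, 7.60 and 8.09. A 370-nt exon of Elavl4 was at 28.0, 25.9, 65.7 and 65.2, higher in both siArglu1 libraries, but scored N or VLOW in all 4 and was not compared. Among the 3-nt alternative 3′ sites, that of Elavl3 was at 81.7, 86.5, 84.1 and 89.8 and those of Elavl2 within 5 PSI between siControl and siArglu1 in either pair.

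**Figure D4:**
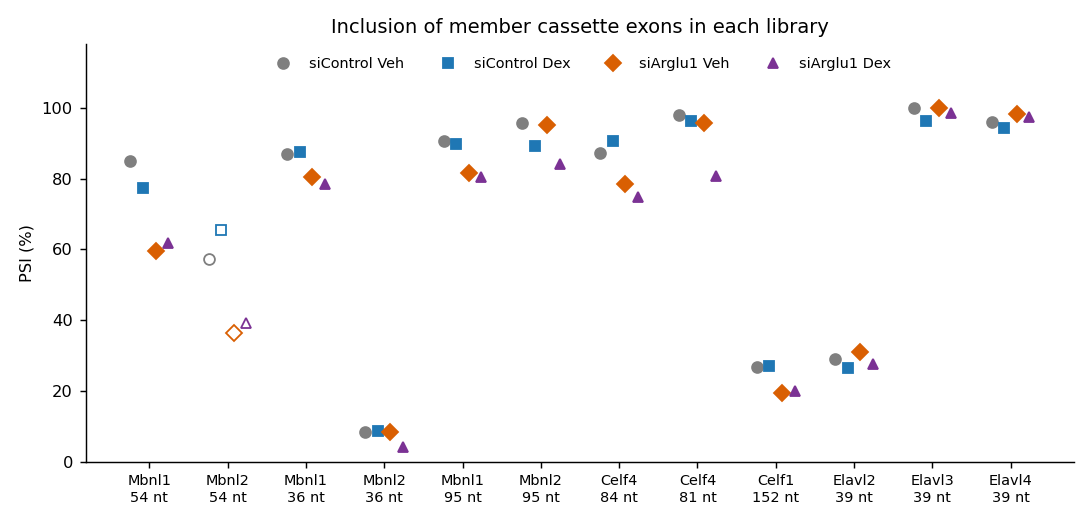
Percent spliced in (vertical axis, 0 to 100) of 12 member cassette exons, named by gene and length, with 1 point for each library. Open points mark the Mbnl2 54-nt exon, which did not meet the coverage rule. The 54-nt exon of Mbnl1 was at 84.8 and 77.5 in the siControl libraries and at 59.6 and 61.7 in the siArglu1 libraries, whereas the 39-nt exon of Elavl2 stayed between 26.5 and 31.0 and those of Elavl3 and Elavl4 between 94.3 and 100.

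Over the 51 sites of the 50 compared events, the median absolute difference was 1.69 PSI in the vehicle pair and 2.22 PSI in that with Dex, against 0.58 and 0.56 PSI over all 61786 sites. With Dex it was 0.70 PSI in siControl cells and 1.05 PSI in siArglu1 cells, against 0.51 and 0.48 PSI. The 51 sites lie several to a gene and were not matched to all sites in type, coverage or level of PSI. Whether the members differ from other genes in this was not tested.

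**Figure D5:**
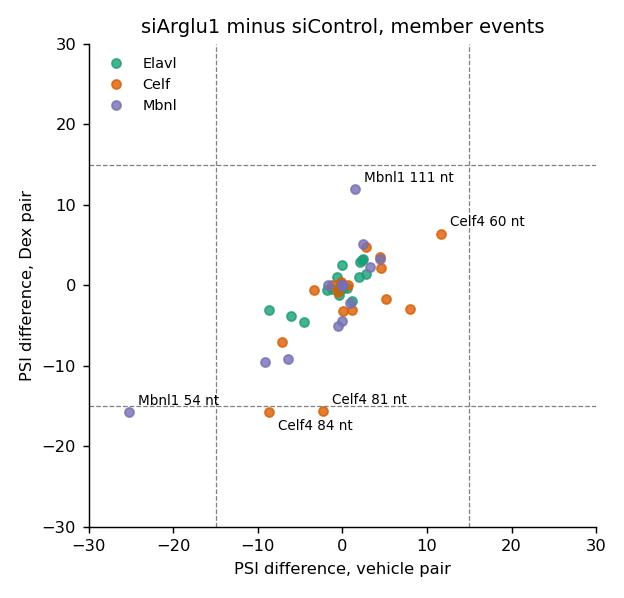
Difference in PSI, siArglu1 minus siControl, for the vehicle pair (horizontal axis) and for the Dex pair (vertical axis), 1 point for each of the 51 sites compared in the Elavl, Celf and Mbnl genes. Dashed lines mark 15 PSI, and only the 54-nt exon of Mbnl1, at -25.2 and -15.8, lies past them on both axes.

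The genes whose pattern over the 4 libraries was most like that of Mbnl2, by the Euclidean distance of log2 values centred on each gene's mean, were Dzip3 (0.03), Gpr146 (0.03), Vwf (0.03), Dock8 (0.04) and Opcml (0.04). Their log2 ratios ran from -1.33 to -1.29 in the vehicle pair. The last 2 had 29 to 91 reads a library and are the least certain.

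Among the Celf paralogs outside the set, Celf3 and Celf5 were lower and Celf6 higher. In both pairs 0 of the 3 passed 0.81, where 15.8% (vehicle) and 12.1% (Dex) of all genes did. Celf3, a neuronal paralog, was as abundant as Celf1, with 68.7, 59.5, 41.8 and 46.2 cRPKM, and its log2 ratio was -0.68 (-0.72 to -0.64) in the vehicle pair and -0.37 (-0.41 to -0.34) in that with Dex. Celf5 was at -0.49 and -0.36 and Celf6 at 0.22 and 0.35. The median of the 3 was -0.49 and -0.36, against 0.004 and 0.003 over all genes.

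Of 29 other RNA-binding proteins of mRNA stability, localisation and splicing, 25 were compared. In the vehicle pair 1 passed upward and 2 downward, and in the Dex pair 0 upward and 1 downward, with medians of -0.23 and -0.31. Over all genes compared, 7.0% passed upward and 8.77% downward in the vehicle pair, and 6.19% and 5.93% in the Dex pair. The one that passed in both pairs was Pum2, a Pumilio repressor of translation, with 10202, 10330, 3794 and 6341 reads and log2 ratios of -1.40 (-1.46 to -1.35) and -0.99 (-1.04 to -0.95). Of 20 deadenylation and decay factors, the machinery that Celf1 recruits and Elavl proteins oppose, 0 passed upward and 3 downward in the vehicle pair. In the Dex pair these counts were 0 and 2. Counts this small cannot be set apart from the shares of all genes just given. Both that passed in each pair were catalytic subunits of the CCR4-NOT deadenylase. Cnot6 was at -1.91 (-1.97 to -1.84) and -1.55 (-1.61 to -1.50) and Cnot6l at -1.61 (-1.71 to -1.51) and -1.17 (-1.26 to -1.09). The third in the vehicle pair, named after its values were seen, was the exonuclease Xrn1, at -1.27 (-1.41 to -1.13) there and -0.60 (-0.72 to -0.49) with Dex. The medians were -0.17 and -0.14, with factors on both sides of 0.

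All 18 mRNAs on the list of known Elavl targets were compared. In each pair 1 passed upward and 2 downward, with medians of -0.11 and -0.21. Of all genes compared, 7.0% passed upward and 8.77% downward in the vehicle pair, and 6.19% and 5.93% in the Dex pair. Mycn, the oncogene of neuroblastoma, had 1153, 1274, 2674 and 3813 reads and was higher by 1.23 (1.14 to 1.34) and 1.29 (1.20 to 1.39) on the log2 scale. Slc2a1, the glucose transporter GLUT1, was at -1.02 and -1.01, and Xiap, an inhibitor of apoptosis, at -1.58 and -1.47. Short of the threshold, and named after their values were seen, Gap43, a growth cone protein, was at 0.73 (0.70 to 0.76) and 0.60 (0.58 to 0.63) and Actb, cytoplasmic actin, at 0.72 and 0.65. The part of the Elavl proteins in any of these values was not tested.

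Of 25 genes with known Mbnl-regulated exons, 18 were compared in reads. In the vehicle pair 1 passed upward and 4 downward, and in the Dex pair 1 upward and 1 downward, with medians of -0.19 and -0.05. With the length trend removed the medians turned positive, to 0.09 and 0.19, and 3 and 4 genes passed upward against 4 and 1 downward. One that passed in both pairs was Tnnt2, cardiac troponin T and a target of both Mbnl and Celf proteins, at 1.46 (1.24 to 1.70) and 1.05 (0.87 to 1.24). Among the 8 genes on the Celf list, 1 passed upward and 1 downward in the vehicle pair and 1 and 0 in the Dex pair. Their medians were -0.34 and -0.21, which also turned positive, to 0.07 and 0.03, with the length trend removed. Of all genes compared, 7.0% passed upward and 8.77% downward in the vehicle pair, and 6.19% and 5.93% in the Dex pair, before removal of that trend. The shares of all genes after its removal were not counted, so the counts with the trend removed have nothing to be read against.

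In splicing, 14 genes of the Mbnl list had 126 events compared. Of these, 7 differed by 15 PSI in the vehicle pair (5.56%), 3 upward and 4 downward, and 5 in the Dex pair (3.97%), 1 upward and 4 downward, beside the 1.96% and 1.52% of all events. For the Celf list, 6 of 56 events in 7 genes differed in the vehicle pair (10.7%), 4 upward and 2 downward, and 2 in the Dex pair (3.57%), 1 in each direction. Clcn1, Grin1, Insr, Mapt and Tnnt2 are on both lists, so the 2 sets of events are not separate. Both lists hold genes chosen for known regulated exons, with earlier results of these data known. No test was made of either share.

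The events of these lists that passed in both pairs were 4 exons in 3 genes. In Bin1, which bends membranes, a 108-nt exon was at 69.9, 71.5, 29.3 and 31.9. A 93-nt exon of Bin1 was at 61.9, 61.9, 27.5 and 29.8. In Mapt, which encodes the microtubule protein tau, a 93-nt exon (mm9 chr11:104179471-104179563) was higher, at 17.98, 14.2, 39.2 and 35.4. In Mef2a, a transcription factor of muscle and neurons on the Celf list, a 24-nt exon (mm9 chr7:74389407-74389430) was at 41.2, 38.6, 13.6 and 9.93. The 4 exons were picked for passing in both pairs, so it is no further result that their siControl and siArglu1 libraries did not overlap. Whether Mbnl2, Elavl4, Celf1 or Celf4 had any part in these differences was not tested.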

How the data were processed

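Polyadenylated RNA was sequenced from 4 libraries of N2a cells, each a pool of 3 cultures. The deposited read counts per gene are whole reads, and the deposited cRPKM (RPKM over mappable positions) were computed by the authors. The deposited percent spliced in (PSI) values came from the authors' vast-tools workflow. The submitters' processing notes name Bowtie and mm9, with no version or role. Blank counts were read as 0. Members and gene lists were chosen with earlier results of these data known. The 10 members, and genes or events of the lists past the threshold in both knockdown pairs (at most 6 a list), are named. Genes needed 75 reads summed. Reads were scaled with TMM factors (edgeR 4.0.16, R 4.3.3) on log2 CPM with a prior count of 1. Intervals of ratios are exact conditional binomial 95% intervals. Several sites of 1 alternative splice site event counted as 1 event. The length trend was removed by lowess (span 0.3, statsmodels 0.14.6). The additive alternative used edgeR's quasi-likelihood test with Benjamini-Hochberg adjustment. Other alternatives were total reads, DESeq2 1.42.0 size factors, a prior count of 5, cRPKM (0.1 added), no minimum on reads, and other thresholds and scores. Calls were tested on simulated data. The 2 deposited columns of expression ratios were not used. PSI coordinates are mm9, and exon sequences GRCm38. Some genes that the naming rule covers are not reported here.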

Additional observations from a re-analysis of the deposited data

Results flagged for a closer look

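Elavl3 was flagged for Dex ratios of opposite signs in the 2 knockdown states, which Elavl2, Celf1, Celf4 and Mbnl2 also had. Celf1 was at -0.04 in siControl and 0.13 in siArglu1 cells, and Mbnl2 at -0.03 and 0.12. The siControl counting intervals of those members included equal levels, whereas for Elavl3 neither interval did. The log2 ratio of Dex over Veh for Elavl3 was -0.056 (95% counting interval -0.10 to -0.01) in siControl cells and 0.126 (0.08 to 0.17) in siArglu1 cells. The difference between the states was not tested, since each group is 1 library. With the trend on mappable length removed, the values were -0.03 and 0.03, the second of them outside its counting interval.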

How the results depend on the processing

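No paired analysis was possible because each group is 1 library and the sample labels pair no replicates; knockdown within treatment enters only through the additive model. The members changed by knockdown numbered 2 in each pair, and 1, Mbnl2 alone, in the vehicle pair with total reads alone, a threshold of 1 or cRPKM, and in the Dex pair with a threshold of 1. The additive model, fitted once over all 4 libraries and not by pair, called 7 for knockdown, beside 61.6% of all genes compared. With no minimum on reads, Celf2, at 0 against 1 read, made 3 in each knockdown pair, and Mbnl3 made 1 member changed by Dex in siControl and 1 in siArglu1 cells. For member events, 10 PSI gave 2 in the vehicle pair (main 1), 1 with Dex in siControl and 2 in siArglu1 cells (main 0 and 0), and 25 PSI gave 0 in the Dex pair (main 3). With no minimum on the score, the counts were 5 and 7 in the vehicle and Dex pairs and 2 and 2 with Dex, including events scored N. Genes of the Mbnl list changed in both pairs numbered 2, and 4 with the length trend removed. The matching shares of all genes were not counted. A total of 37 counts, those with Celf2 among them, stayed within 1.5 times. The members' log2 ratios kept their sign in 39 and 40 of 40 values in the vehicle and Dex pairs, and in 36 and 37 with Dex. Pooled single libraries limit every value to counting error, and reads below LOW coverage limit the Mbnl2 exons.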
